A study of Mus musculus with 10 samples.

Results

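Memory T cell associated genes are transcripts that antigen-experienced CD4 T cells are known to carry at higher levels than naive ones. The 10 genes S100a4, S100a6, S100a10, Anxa2, Lgals1, Itgb1, Ahnak, Crip1, Cd44 and Id2 were taken by symbol from the 19938 genes with a probe set of their own on the arrays, and each of the 10 had exactly 1 such probe set. They were followed in CD4+ cells taken from spleen with magnetic beads, in female mice of 8 weeks. Strain NOD (genotype label NODk) was compared with strain B10 (genotype label B10Br). Each strain had 3 arrays of unstimulated cells (T0, replicates 1 to 3) and 2 arrays of cells stimulated for 4 h (T1, replicates 2 and 3) with the phorbol ester PMA (10 ng/ml) plus the calcium ionophore ionomycin (1 uM). Replicate 1 at T1 is not analysed here. PMA activates protein kinase C and ionomycin lets calcium into the cell, so the pair bypasses the T cell receptor. T0 is labelled basal, but the protocol can also be read as culture for 4 h without the drugs. The samples are labelled biological replicates with no animal named, so the p-values measure the spread between these samples. Spleen CD4+ cells are a mixture of naive, memory and regulatory T cells, and a bead preparation can hold other cells.

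Values are log2 intensities, on which a difference of 1 is a 2-fold change. Array medians lay between 6.18 and 6.23, and Pearson's r over all probe sets was 0.985 to 0.993 between arrays of one group and 0.943 to 0.984 between groups. Cd4 lay between 10.89 and 11.21 at T0 and between 9.06 and 9.75 at T1. Cd3e lay between 10.34 and 10.49 at T0 and between 8.75 and 9.22 at T1. The stromal gene Col1a1 lay between 6.67 and 7.03 on all arrays. The myeloid gene Lyz2 lay between 9.85 and 10.24 at T0 and between 8.07 and 8.75 at T1.

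Naive CD4 T cells that meet antigen divide and leave behind memory cells, which stay poised for quick recall and move through tissues. As background, such cells raise adhesion molecules (Cd44, the hyaluronan receptor, and Itgb1, the shared beta chain of the VLA integrins) and calcium-linked membrane and cytoskeleton proteins (S100 proteins, annexin A2, Ahnak). They also raise galectin-1, the LIM-domain protein Crip1 and Id2, an inhibitor of E-protein transcription factors. Many of these genes are active in macrophages and other myeloid cells too. In bulk samples, fewer cells of a type and less RNA per cell cannot be told apart.

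Promoter windows show what precedes the genes that moved on stimulation, since PMA and ionomycin are known to activate the factors AP-1, NF-kB and NFAT. RefSeq (GRCm38.p6) gave a window of 300 bases, from 250 before to 50 after the start, for 8 of the 10 genes. S100a10 and Lgals1 had no window in that table. The AP-1 motif TGANTCA, searched on both strands, occurred in 1 of the 8 windows (Anxa2, where the match TGAGTCA begins at -95) and in 7.81% of all 32851 promoter windows. An NF-kB motif, GGGNNNNNCC on both strands, occurred in 6 of the 8 and in 50.8% of all windows. The E-box CANNTG, the site class bound by the E proteins that Id2 inhibits, occurred in 4 of the 8 and in 72.3% of all windows. A match in so loose a motif is a description of letters and not a site. The windows of 4 genes that changed are given 5′ to 3′ on the gene's strand, with AP-1 and NF-kB matches in capitals:
S100a4 promoter, chr3:90603520-90603819, plus strand: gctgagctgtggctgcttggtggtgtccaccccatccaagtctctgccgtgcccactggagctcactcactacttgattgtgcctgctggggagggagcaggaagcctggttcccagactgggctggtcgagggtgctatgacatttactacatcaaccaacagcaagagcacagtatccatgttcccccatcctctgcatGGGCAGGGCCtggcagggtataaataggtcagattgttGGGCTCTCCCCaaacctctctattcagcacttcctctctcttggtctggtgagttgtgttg
S100a6 promoter, chr3:90612644-90612943, plus strand: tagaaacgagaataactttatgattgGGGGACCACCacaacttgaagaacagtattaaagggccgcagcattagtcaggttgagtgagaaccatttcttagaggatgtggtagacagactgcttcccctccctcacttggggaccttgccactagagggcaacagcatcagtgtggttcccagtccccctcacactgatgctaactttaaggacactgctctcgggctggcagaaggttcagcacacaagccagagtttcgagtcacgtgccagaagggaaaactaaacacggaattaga
Anxa2 promoter, chr9:69453433-69453732, plus strand: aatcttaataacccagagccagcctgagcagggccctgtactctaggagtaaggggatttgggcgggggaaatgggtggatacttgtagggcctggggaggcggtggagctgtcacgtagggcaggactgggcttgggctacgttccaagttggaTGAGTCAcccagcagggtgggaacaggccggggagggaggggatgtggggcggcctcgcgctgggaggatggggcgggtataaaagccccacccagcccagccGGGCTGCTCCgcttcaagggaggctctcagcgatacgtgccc
Cd44 promoter, chr2:102901616-102901915, minus strand: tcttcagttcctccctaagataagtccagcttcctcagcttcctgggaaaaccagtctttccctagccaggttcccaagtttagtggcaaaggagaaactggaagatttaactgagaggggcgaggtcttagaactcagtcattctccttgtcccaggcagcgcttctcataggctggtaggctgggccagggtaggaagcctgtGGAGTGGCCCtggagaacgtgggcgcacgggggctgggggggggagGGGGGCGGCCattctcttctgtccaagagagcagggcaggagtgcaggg
Of these, Anxa2 and Cd44 rose on stimulation and S100a4 and S100a6 fell, and all 4 windows hold an NF-kB match. An AP-1 or NF-kB match was a condition for giving a window, which left out no window of a gene that changed. Ahnak and Crip1, which passed in neither strain, hold 6 and 5 NF-kB matches. S100a4, S100a6 and S100a10 all lie on chromosome 3.

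The first comparison asked how the genes responded to PMA and ionomycin within each strain. Cd44 and Anxa2 rose in both strains, S100a4, S100a10 and Lgals1 fell in both, and S100a6 fell in NOD. Itgb1, Ahnak, Crip1 and Id2 passed in neither strain. In B10, 2 genes were higher, 3 lower and 5 did not pass (adjusted p under 0.05, limma with Benjamini-Hochberg adjustment), where 31.8% of all genes passed, 13.7% higher and 18.1% lower. In NOD, 2 were higher, 4 lower and 4 did not pass, where 35.5% of all genes passed, 16.1% higher and 19.5% lower. With each array scaled to one 75th percentile, 5393 genes were higher and 3145 lower in NOD, against 3201 and 3884, and the calls of the 10 genes kept their number and direction. The median difference over the 10 genes was -0.22 in B10 and -0.21 in NOD, against 0.03 and 0.08 over all genes. The single arrays of T0 and T1 did not overlap for 7 genes in B10 and 9 in NOD, which held for 52.4% and 56.0% of all genes.

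**Figure D1:**
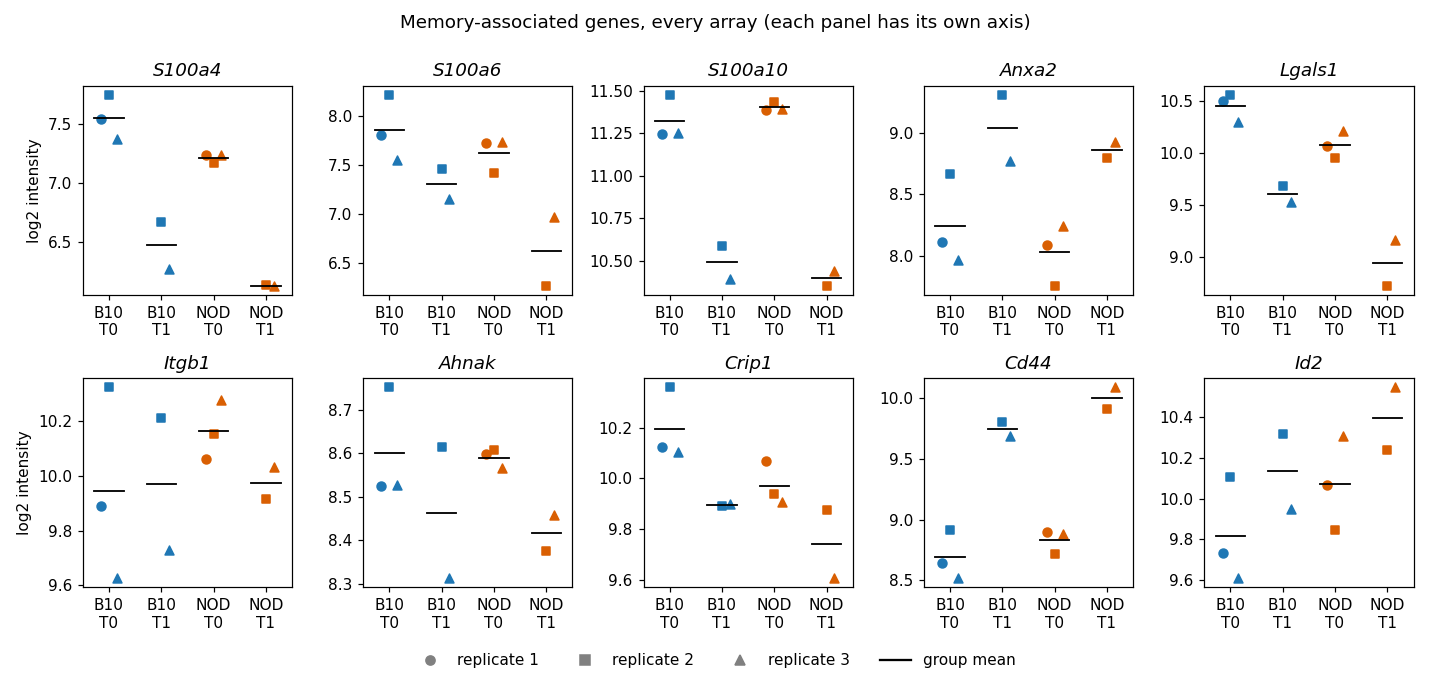
Log2 intensity (y axis, arbitrary units of the array) of the 10 genes on each of the 10 arrays, one panel per gene, with B10 in blue and NOD in orange and bars at the group means. S100a4, S100a10 and Lgals1 are lower on every T1 array than on any T0 array of the same strain, and Cd44 and Anxa2 are higher.

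Among the S100 proteins, which bind calcium and partner proteins of the membrane and cytoskeleton, S100a4 had log2 values of 7.55, 7.75 and 7.37 in B10 at T0 and 6.67 and 6.28 at T1. The NOD values were 7.24, 7.17 and 7.24 at T0 and 6.14 and 6.13 at T1. All T1 values lay below all T0 values of either strain. The T1 values lay near the array medians of 6.18 to 6.23, where a fall or a difference between strains may be understated. S100a4 fell by 1.08 ± 0.13 (SE) in both strains, a 2.11-fold fall in B10 and 2.12-fold in NOD (adjusted p = 2.79e-05 in each). The order of the group levels was B10 T0, NOD T0, B10 T1 and NOD T1. Neighbours in that order did not overlap, but the strain neighbours did not pass the test described further on.

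S100a10, the partner that forms a tetramer with annexin A2 at the plasma membrane, had log2 values of 11.25, 11.48 and 11.25 in B10 at T0 and 10.58 and 10.39 at T1. In NOD it stood at 11.39, 11.44 and 11.39 before stimulation and at 10.35 and 10.44 after. The strains overlapped in each state, and T1 was lower than T0 in both. It fell by 0.83 ± 0.11 in B10 (1.78-fold, adjusted p = 3.58e-05) and by 1.01 ± 0.11 in NOD (2.01-fold, adjusted p = 6.91e-06).

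S100a6 had log2 values of 7.81, 8.21 and 7.55 in B10 at T0 and 7.46 and 7.15 at T1. Its NOD values were 7.73, 7.41 and 7.74 at T0 and 6.27 and 6.97 at T1, so the widest gap between replicates lay in NOD at T1. S100a6 fell by 1.01 ± 0.22 in NOD (2.01-fold, adjusted p = 0.00255), and by 0.66 (adjusted p = 0.0447) without NOD T1 replicate 2. In B10 the difference was -0.55 ± 0.22 with adjusted p = 0.0730. The B10 arrays did not overlap between states, and the B10 difference passed without B10 T0 replicate 3 (-0.71, adjusted p = 0.0321) or without either NOD T1 array (adjusted p = 0.0339).

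Annexin A2, which binds membranes in a calcium-dependent way, moved against its partner S100a10. Anxa2 log2 values were 8.11, 8.66 and 7.96 in B10 at T0 and 9.31 and 8.77 at T1. In NOD they were 8.09, 7.76 and 8.24 at T0 and 8.80 and 8.93 at T1. The groups did not overlap within a strain, although the B10 arrays spread widely, and 8.66 at T0 came close to 8.77 at T1. Anxa2 rose by 0.80 ± 0.21 in B10 (1.74-fold, adjusted p = 0.0101) and by 0.83 ± 0.21 in NOD (1.78-fold, adjusted p = 0.00754). The B10 call was lost without B10 T1 replicate 2 (0.53, adjusted p = 0.148), and the NOD call without NOD T1 replicate 3 (0.77, adjusted p = 0.0574).

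Lgals1 encodes galectin-1, a secreted lectin that binds glycoproteins on T cells and can dampen them. Its log2 values were 10.50, 10.56 and 10.30 in B10 at T0 and 9.69 and 9.53 at T1. NOD stood at 10.07, 9.95 and 10.21 at T0 and 8.73 and 9.17 at T1. The 4 groups followed one another without overlap, from B10 T0 down through NOD T0 and B10 T1 to NOD T1. Lgals1 fell by 0.84 ± 0.14 in B10 (1.79-fold, adjusted p = 0.000352) and by 1.13 ± 0.14 in NOD (2.19-fold, adjusted p = 3.09e-05).

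Cd44, the hyaluronan receptor used to tell memory from naive T cells and known to rise on activation, had log2 values of 8.64, 8.91 and 8.52 in B10 at T0 and 9.81 and 9.69 at T1. The NOD values were 8.90, 8.71 and 8.88 at T0 and 9.91 and 10.09 at T1. Strains overlapped at T0, and both NOD values lay above both B10 values at T1. Cd44 rose by 1.06 ± 0.13 in B10 (2.08-fold, adjusted p = 2.09e-05) and by 1.17 ± 0.13 in NOD (2.25-fold, adjusted p = 8.72e-06).

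Itgb1, which pairs with alpha chains to bind matrix and VCAM-1, did not pass. Its log2 values were 9.89, 10.32 and 9.63 in B10 at T0, and 10.21 and 9.73 at T1, a difference of 0.02 ± 0.18 (95% interval -0.38 to 0.42, adjusted p = 0.949). In NOD the values 10.06, 10.15 and 10.28 at T0 and 9.91 and 10.03 at T1 did not overlap, with a difference of -0.19 ± 0.18 (-0.59 to 0.21, adjusted p = 0.453). The intervals leave room for a rise of 0.42 or a fall of 0.59.

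Ahnak is a very large scaffold protein that links calcium channels and annexin A2 with S100a10 to the cytoskeleton. It stood between 8.53 and 8.75 in B10 at T0 and at 8.61 and 8.31 at T1, and between 8.57 and 8.61 in NOD at T0 and at 8.37 and 8.46 at T1. The differences were -0.14 ± 0.11 in B10 (adjusted p = 0.439) and -0.17 ± 0.11 in NOD (adjusted p = 0.259), and the arrays overlapped in B10 only. Crip1, a small LIM-domain zinc protein, had log2 values of 10.12, 10.36 and 10.11 in B10 at T0 and 9.89 and 9.90 at T1, which did not overlap. In NOD it had 10.07, 9.94 and 9.91 at T0 and 9.87 and 9.61 at T1. Its differences were -0.30 ± 0.12 (adjusted p = 0.0672) and -0.23 ± 0.12 (adjusted p = 0.143). The B10 value of Crip1 lay near the threshold and passed without either NOD T1 array (adjusted p = 0.0457).

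Id2 blocks E proteins from binding DNA and is needed for several effector lymphocyte lineages. Its log2 values were 9.74, 10.10 and 9.61 in B10 at T0 and 10.32 and 9.95 at T1. In NOD they were 10.07, 9.85 and 10.31 at T0 and 10.24 and 10.55 at T1. The arrays overlapped in each strain, and the differences of 0.32 ± 0.18 in B10 (adjusted p = 0.220) and 0.32 ± 0.18 in NOD (adjusted p = 0.182) did not pass.

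**Figure D2:**
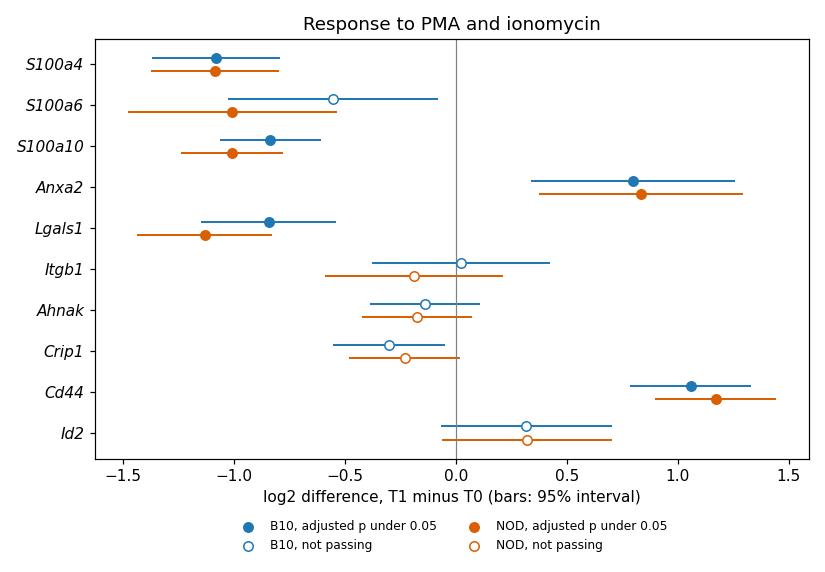
Stimulation difference (T1 minus T0, log2, x axis) of each gene in B10 and in NOD with 95% intervals from limma; filled points have an adjusted p under 0.05. Cd44 and Anxa2 lie above 0 and S100a4, S100a10 and Lgals1 below 0 in both strains, and S100a6 is filled in NOD and open in B10.

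Markers of several cell types fell on stimulation, whereas Cd44 and Anxa2 rose. Of 10 measured monocyte and macrophage markers, 9 fell on stimulation in each strain, with medians of -1.53 in B10 and -1.82 in NOD, where 18.1% and 19.5% of all genes fell. The mean of those markers ranged from 7.83 to 8.30 in B10 at T0, 6.64 to 6.78 in B10 at T1, 8.67 to 8.99 in NOD at T0 and 7.01 to 7.35 in NOD at T1. None of the defining markers was at 0, a value that log2 array data do not give for an unexpressed gene, and Csf1r lay between 7.73 and 8.61 at T0 and between 6.24 and 6.79 at T1. Neutrophil markers fell for 4 of 8 in B10 and 6 of 8 in NOD, B cell markers for 5 of 8 and 6 of 8. Of 7 CD4 T cell markers, 4 fell in each strain. The mean of the monocyte and macrophage markers was also used as a covariate. Its T0 and T1 ranges do not overlap, so this fit cannot separate it from stimulation. With it, 0 of the 10 genes passed in either strain. Of all genes, 884 passed in B10 and 400 in NOD, against 6342 and 7085 without the covariate. In that fit S100a4 differed by -1.35 in B10 with a standard error of 0.44, against 0.13 without the covariate. Cd44 differed by 1.26 in B10 with a standard error of 0.42. Lgals1 then differed by -0.49 and -0.70 in B10 and NOD, and S100a6 by 0.10 and -0.21. The part of these cells in the falls of S100a4, S100a6, S100a10 and Lgals1 was not tested.

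The second comparison was between strains within each state. At T0, 0 of the 10 genes differed in limma at an adjusted p under 0.05, where 5.79% of all genes did. At an unadjusted p under 0.05 there were 2, against 15.8% of all genes. Single arrays of the strains did not overlap for 3 genes, which held for 22.8% of all genes. These were S100a4, at -0.34 ± 0.12 on the NOD minus B10 scale (adjusted p = 0.149), Lgals1 at -0.37 ± 0.13 (adjusted p = 0.123) and Crip1 at -0.22 ± 0.10 (adjusted p = 0.316). The largest positive values were those of Id2 (0.26 ± 0.16, adjusted p = 0.520) and Itgb1 (0.22 ± 0.16, adjusted p = 0.638). The median over the 10 genes was -0.11 and over all genes -0.01. With array weights, S100a4, Lgals1 and Crip1 passed in limma (adjusted p = 0.0279, 0.0415 and 0.0468). Of all genes, 2316 passed with array weights, against 1155 without. Without both B10 arrays of replicate 3, the S100a4 difference was -0.43.

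At T1, Lgals1 was the single gene of the 10 that differed, by -0.66 ± 0.15 (NOD minus B10, 1.58-fold lower in NOD, adjusted p = 0.0339), where 3.60% of all genes passed (1.77% higher and 1.83% lower in NOD). With each array scaled to one 75th percentile, 397 genes were higher and 269 lower in NOD at T1, against 353 and 365, and Lgals1 did not pass. This call held in 10 of 23 alternatives, whose adjusted p ran from 0.0114 to 0.381. It was lost without B10 T0 replicate 1, B10 T1 replicate 2, B10 T1 replicate 3, NOD T0 replicate 1 or NOD T1 replicate 2, and the difference ranged from -0.88 to -0.44 over single arrays left out. S100a6 differed by -0.68 ± 0.24 (adjusted p = 0.152), S100a4 by -0.34 ± 0.15 (adjusted p = 0.260) and Cd44 by 0.25 ± 0.14 (adjusted p = 0.399), and none of them passed. Leaving out NOD T1 replicate 2 or 3 gave -0.33 or -1.03 for S100a6, and leaving out B10 T1 replicate 2 or 3 gave -0.14 or -0.54 for S100a4. Single arrays did not overlap for 5 genes (S100a4, S100a6, Lgals1, Crip1 and Cd44), which held for 41.8% of all genes. 

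**Figure D3:**
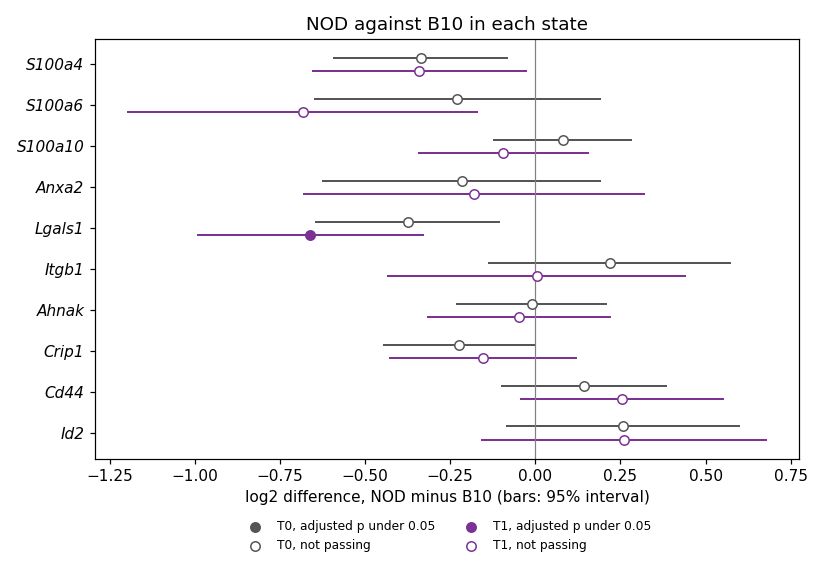
Strain difference (NOD minus B10, log2, x axis) of each gene at T0 and at T1, with 95% intervals from limma; filled points have an adjusted p under 0.05. Lgals1 at T1 is the single filled point, and S100a4, S100a6, Lgals1 and Crip1 lie below 0 in both states.

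Markers of other cells differed between the strains at T0. Of the 10 monocyte and macrophage markers, 7 were higher in NOD (median 0.87), as were 4 of 8 neutrophil markers and all 3 measured erythroid markers (median 2.38), and 1 monocyte and macrophage marker was higher at T1. Of all genes, 3.44% were higher in NOD at T0 and 1.77% at T1. The erythroid mean ranged from 7.31 to 9.38 in B10 and from 10.1 to 10.7 in NOD at T0. At T1 it ranged from 7.74 to 9.48 in B10 and from 10.3 to 10.7 in NOD. The median difference of the 3 erythroid markers at T1 was 2.04, and 0 of them passed. Single arrays of the strains did not overlap at T1 for all 3, which held for 41.8% of all genes. The part of these cells in the strain values was not tested. Fits with marker covariates are given with the processing alternatives.

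The third comparison asked whether the stimulation response differed between strains (NOD response minus B10 response). It passed for 0 of the 10 genes in limma, where 0.246% of all genes passed, and at an unadjusted p under 0.05 also for 0, against 9.23% of all genes. The interval bounds what could be missed. For S100a4 the difference in response was -0.00 with a 95% interval of -0.41 to 0.40. Its T1 values lay near the array medians, where a difference may be understated. The difference in response was 0.11 for Cd44 (-0.27 to 0.50) and -0.17 for S100a10 (-0.50 to 0.15). The intervals were wider for Anxa2 at 0.04 (-0.61 to 0.69), Lgals1 at -0.29 (-0.72 to 0.14) and S100a6 at -0.45 (-1.12 to 0.21). S100a6, which passed in NOD and not in B10, is therefore not shown to respond differently in the strains.

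The 10 genes shifted together between B10 replicates, a pattern noticed after the values were seen and given without a test. In B10 at T0, replicate 2 lay above its group mean for all 10 genes (median deviation 0.21 log2), and replicate 3 for 0 of the 10 (-0.18). Replicate 1 lay above for 1 gene. At T1, B10 replicate 2 lay above for 9 of the 10, all but Crip1, and replicate 3 for 1. Over all genes the share above the group mean on these arrays was 53.8%, 45.8% and 48.1% for T0 replicates 1, 2 and 3 and 51.2% and 48.8% for T1 replicates 2 and 3. In NOD the counts were 6, 2 and 7 of 10 at T0 and 2 and 8 at T1. Deviations of a gene within a group sum to 0, so the counts of its arrays are not independent. With 2 arrays at T1 the deviations mirror each other, and the count of one array fixes that of the other. The same holds for the lists that follow.

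Genes of neighbouring T cell states deviated on the same arrays. Of 30 measured effector and memory companion genes, 25 lay above the mean on B10 T0 replicate 2 and 7 on replicate 3. Of 16 measured naive T cell genes, 2 lay above on replicate 2 and 14 on replicate 3. The 5 regulatory T cell markers all lay above on replicate 2 and none on replicate 3, in both states. Markers of other cells deviated too. At T0, 7 of 8 B cell markers and 4 of 5 plasma cell markers lay above the mean on replicate 2, against 1 and 0 on replicate 3, and both CD8 T cell markers lay above on replicate 2 and below on replicate 3. Of the 10 monocyte and macrophage markers, 0, 6 and 10 lay above on replicates 1, 2 and 3, and of the 8 neutrophil markers 3, 2 and 7. The erythroid mean was 7.31 on B10 T0 replicate 2, 8.16 on replicate 1 and 9.38 on replicate 3, and 7.74 and 9.48 on T1 replicates 2 and 3. The part of these differences in the shared shift was not tested. Without both B10 arrays of replicate 3, the Lgals1 difference at T1 (NOD minus B10) was -0.74, and without both of replicate 2 it was -0.58. Each of these fits left 1 B10 array at T1.

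**Figure D4:**
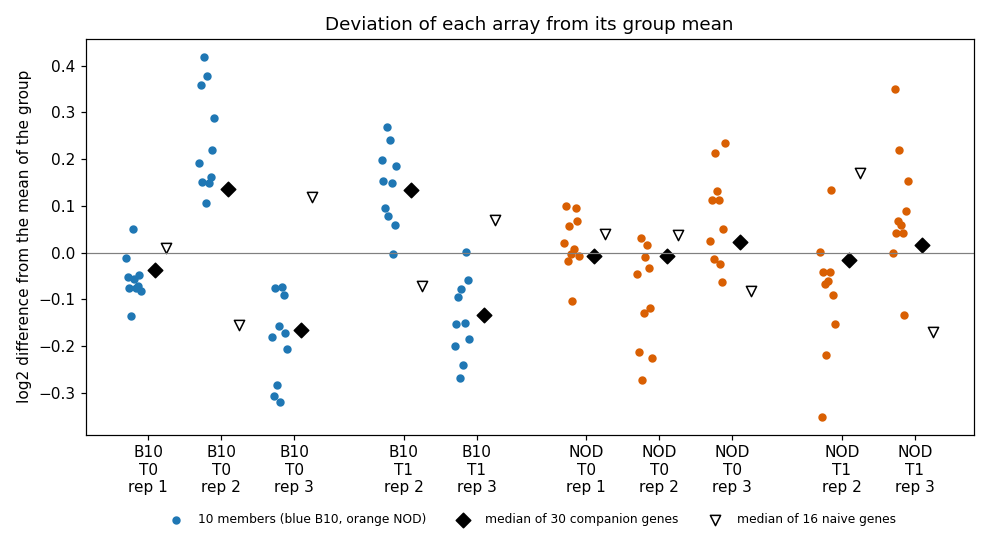
Deviation of each array from its group mean (log2, y axis) for the 10 genes (points, blue for B10 and orange for NOD), with the median of 30 effector and memory companion genes (diamonds) and of 16 naive T cell genes (triangles). On B10 replicate 2 at T0 all 10 points lie above 0 and the naive median below, and on replicate 3 the reverse holds.

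Related genes, drawn from lists chosen by known function and partly overlapping, gave a wider view. Of the 30 effector and memory companions, 7 were higher and 6 lower on stimulation in B10 (median -0.15) and 7 higher and 10 lower in NOD (median -0.19). Of all genes, 13.7% were higher and 18.1% lower in B10 and 16.1% and 19.5% in NOD. Cd69, an early activation antigen that holds T cells in tissue, rose by 2.02 in B10 and 1.76 in NOD. Il18r1, a chain of the interleukin-18 receptor, fell (-1.69 in B10 and -2.64 in NOD). Of the 16 naive T cell genes, 0 were higher, with 11 lower in B10 and 12 in NOD, and medians of -1.25 and -0.85. Among these, Il7r, the interleukin-7 receptor alpha chain, fell (-2.49 in B10 and -3.12 in NOD), as did Nsg2 (-1.79 in each strain).

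For the gene families of the 10 genes, the shares of all genes to set beside the stimulation counts are again 13.7% higher and 18.1% lower in B10 and 16.1% and 19.5% in NOD. Of the 15 other genes in the S100 list, which also holds the S100P-binding protein gene S100pbp, 0 were higher and 4 lower on stimulation in B10, and 1 higher and 5 lower in NOD. S100a8 and S100a9, which are also in the neutrophil marker list, were among the lower ones (-1.69 and -1.74 in B10, -1.95 and -2.32 in NOD). S100a13 fell as well (-1.14 in B10 and -0.95 in NOD). Of 11 further annexins, 4 fell in B10 and 5 in NOD with none higher, and Anxa6 was among those that fell (-0.88 and -1.28) while Anxa2 rose. Of 7 further galectins, 2 were higher and 3 lower in B10 and 3 lower in NOD, and Lgals8 fell alongside Lgals1 (-0.98 in B10 and -0.84 in NOD).

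Among 23 further integrin chains, 2 rose and 9 fell in B10, where 13.7% of all genes rose and 18.1% fell. In NOD 2 rose and 11 fell, where 16.1% of all genes rose and 19.5% fell. Itga4 and Itga6, alpha chains that pair with Itgb1, both fell, while Itgb1 itself did not pass. The Itga4 difference was -1.85 in B10 and -2.04 in NOD, and that of Itga6 was -2.35 and -2.29. Itgav, the alpha chain shared by several matrix-binding integrins, rose by 1.35 in B10 and 2.01 in NOD. Of 6 ID and E proteins other than Id2, 1 rose and 4 fell in each strain. The E proteins Tcf3 and Tcf4 fell in both strains (Tcf3 by -0.74 in B10 and -0.47 in NOD, Tcf4 by -0.81 and -1.58). The Tcf3 call in NOD was lost without NOD T1 replicate 2 (-0.33, adjusted p = 0.0624). Of 13 measured cytoskeletal partners of Cd44 and Ahnak, 1 rose and 7 fell in each strain, whereas Cd44 rose. Those that fell included the actin cross-linker Flna (-1.85 in B10 and -2.11 in NOD) and the membrane linker Ezr (-0.64 and -0.61).

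Between strains at T0, 3 companions were higher and 9 lower in NOD (median -0.22), where 3.44% of all genes were higher and 2.35% lower. Hopx, a regulator of persisting effector T cells, differed by -1.48 (adjusted p = 8.07e-05). Capg, an actin-capping protein, differed by -1.45 (adjusted p = 0.000547) and Ccl5, a chemokine of memory T cells, by -1.44 (adjusted p = 0.000807). Anxa1, which encodes annexin A1, was higher in NOD by 1.17 (adjusted p = 0.000208), and S100a11 differed by -1.08 (adjusted p = 0.00105). With the erythroid marker mean as a covariate, Capg (-1.13, adjusted p = 0.104), Ccl5 (-0.79, adjusted p = 0.159), Anxa1 (0.96, adjusted p = 0.0591) and S100a11 (-0.54, adjusted p = 0.210) no longer passed. With the monocyte and macrophage mean as a covariate none of the 5 passed, Hopx standing at -0.72 (adjusted p = 0.386). The ranges of both marker means do not overlap between strains at T0 or at T1. Fits with these covariates therefore cannot separate the marker means from strain. At T1, 1 companion was higher and 6 lower (median -0.33), where 1.77% of all genes were higher and 1.83% lower. S100a11 differed by -1.72 (adjusted p = 0.000261) and Ccl5 by -1.52 (adjusted p = 0.00411). The Ccl5 call at T1 ended with the erythroid covariate (-0.94, adjusted p = 0.0898) and with the monocyte and macrophage covariate (-1.48, adjusted p = 0.0912). Of the naive genes, 3 of 16 were lower in NOD at T0 and 1 at T1, with none higher.

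The profiles of the 10 genes over the 10 arrays were set against one another after each was centred on its own mean, with the root mean square log2 distance as the measure of likeness. Among the 10 genes, Ahnak and Crip1 were closest (0.15), followed by Ahnak and Itgb1 (0.16), Lgals1 with S100a4 (0.17) and Lgals1 with S100a6 (0.17). A wider search left out predicted genes and symbols beginning with Olfr, Vmn, Mir, Snor, Rn, Igh, Igk, Igl, Tra or Trb. Among the genes searched, the profile nearest to S100a4 was that of Nmi (0.07). That nearest to S100a10 was Atp6v1a (0.07), and that nearest to Lgals1 was Gskip (0.13). Sh3bgrl was nearest to S100a6 (0.16) and the second nearest to Lgals1 (0.14). For Cd44 the nearest was Fam162a (0.09), for Anxa2 Sla (0.12), for Id2 Lmnb1 (0.13), for Ahnak Cdc42 (0.05), for Crip1 Phtf1 (0.07) and for Itgb1 Acot1 (0.11). By this measure a gene that changes little lies near other genes that change little.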

How the data were processed

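RNA of each of the 10 samples was hybridised to its own Affymetrix mouse array. The authors deposited log2 intensities made with RMA in Affymetrix Power Tools, per the submitters' processing notes. RMA by design corrects background, brings arrays to one distribution and summarises probes. Versions are not given in the sources used here, and base 2 follows from how far the values extend. No detection call was used, so a fold change near background may be understated.

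Of 35486 probe sets, 21789 had 1 symbol, 1621 several and 12076 none. The brightest probe set stood for each of 19938 genes. Means of the 4 groups were modelled over all 10 arrays together with limma 3.58.1 in R 4.3.3 (6 residual degrees of freedom), with eBayes, two-sided tests and Benjamini-Hochberg adjustment over all genes in each of 5 contrasts, at a threshold of 0.05. The procedure was tested on simulated data. No array pair held identical values. The small number of arrays limits precision. The 10 genes and all lists were chosen with earlier results of these data known. Up to 4 genes of each related list could be named per contrast, those with the largest differences among genes that passed without overlap of single arrays, and a gene named in one strain was given in both. For each of the 10 genes, 3 genes with the nearest profile could be named. Promoters came from RefSeq (GRCm38.p6), and figures were drawn with matplotlib 3.10.9.

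Alternatives were another scaling, the mean of all probe sets, every probe set, brighter genes only, array weights, eBayes with trend and robust options, the compared groups alone, replicate number as a block, marker covariates, and arrays left out. Leaving out both B10 arrays of replicate 2 was added after the data were seen.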

Additional observations from a re-analysis of the deposited data

Results flagged for a closer look

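The responses of 3 related genes differed between strains by the interaction test in limma (NOD response minus B10 response). Lgals3, which encodes galectin-3, differed by -1.33 (adjusted p = 0.0132). It rose by 0.73 in B10 and fell by 0.60 in NOD. Leaving out single arrays gave values from -1.54 to -1.12, and the call was lost without B10 T1 replicate 2 (adjusted p = 0.0525). Anxa1, which encodes annexin A1, differed by -1.22 (adjusted p = 0.0329), with falls of 1.13 in B10 and 2.35 in NOD. Its values ranged from -1.36 to -1.07 over single arrays left out, 7 of which ended the call. The Anxa1 mean was 7.09 in B10 and 8.27 in NOD at T0, and 5.96 and 5.92 at T1. Both T1 means lay below the array medians of 6.18 to 6.23, where a fall in either strain may be understated. Lgals9, which encodes galectin-9, differed by 1.07 (adjusted p = 0.0246), with falls of 1.54 in B10 and 0.46 in NOD and a range of 0.90 to 1.25, and 7 single omissions ended its call. The Lgals9 fall in NOD no longer passed without NOD T1 replicate 2 (-0.29, adjusted p = 0.109) or with 75th percentile scaling (-0.34, adjusted p = 0.0590).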

How the results depend on the processing

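Of 1140 values of the 10 genes under alternatives, 1101 kept their side of the threshold. With the monocyte and macrophage covariate, 884 genes passed for stimulation in B10, 400 in NOD, 32 between strains at T0 and 92 at T1 (main counts 6342, 7085, 1155 and 718), and 0 of the 10 genes passed for stimulation in B10 or NOD (5 and 6) or at T1 (1). In that fit 3 stimulation differences that had passed changed sign: Id1 in B10 to -0.077, and Lgals3 and Lgals9 in NOD to 0.17 and 0.064. In B10 the differences of S100a6 and Itgb1, which had not passed, also changed sign, to 0.10 and -0.23. The causes were not tested. Covariate fits cannot separate the monocyte and macrophage mean from stimulation, or either marker mean from strain, because the ranges of the groups compared do not overlap. At T0, array weights gave 2316 genes and the erythroid covariate 136; of the 10 genes, 3 passed with array weights and 1 without both B10 arrays of replicate 3. At T1, 292 genes passed with array weights, 128 with the erythroid covariate, 128 with only the groups compared and 147 without both B10 arrays of replicate 2. Lgals1 then no longer passed at T1, so that 0 of the 10 genes did, nor with the 75th percentile scaling, every probe set or without both B10 arrays of replicate 3. The interaction called 49 genes, 31 with the 75th percentile scaling, 102 with trend and robust settings, 31 with array weights, 80 with the erythroid covariate and 11 without both B10 arrays of replicate 2. Leaving out single arrays gave 5376 to 6596 genes in B10, 5915 to 7071 in NOD, 571 to 1306 at T0, 184 to 889 at T1 and 13 to 69 in the interaction, and 4 to 7, 5 to 6, 0 to 0, 0 to 1 and 0 to 0 of the 10 genes.

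Scaling to one 75th percentile moved the median of all genes in NOD from 0.08 to 0.21, and the interaction calls went from 19 higher and 30 lower to 16 and 15. Correlations of the deviations of same-numbered arrays between T0 and T1 were 0.41 and 0.40 in B10 and -0.014 and 0.22 in NOD, so the numbers were not taken to pair arrays. The fixed replicate block gave B10 and NOD arrays of the same number a shared effect, so it did not model pairing within a strain. With it, 5893, 6313, 1212, 923 and 50 genes passed in the 5 contrasts, and 5, 6, 0, 1 and 0 of the 10 genes. A random block of strain and replicate number does model pairing within a strain, and its correlation was 0.083. With the random block, 6558, 7384, 1186, 755 and 69 genes passed, and again 5, 6, 0, 1 and 0 of the 10 genes. The small number of arrays, above all the 2 at T1, and the lack of background calls limit what small differences can show.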
